A study of Mus musculus with 9 samples.

Results

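In all, 51 genes of DNA replication and S phase were followed in sorted mouse long-term haematopoietic stem cells (LT-HSCs). They were taken by symbol from a list of licensing, polymerase, nucleotide supply, and E2F and chromatin assembly genes, and all 51 were found among the 22322 genes of the table. The groups were 3 Cxcr3-/- mice, which lack a chemokine receptor gene, 3 Cxcl10-/- mice, which lack the gene of one of its ligands, and 3 wild-type (WT) mice, with 1 library per mouse. All were C57BL/6 mice aged 6 to 8 weeks, and each library came from 500 to 800 bone marrow cells sorted as lineage-negative cells with Sca-1+ and c-Kit+, that were also CD48-, CD135- and CD150+. The RNA was amplified before sequencing; how either allele was made, and whether the animals were littermates, is not given in the sources used here.

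A cell copies its genome once per division. In G1, the origin recognition complex, with Cdc6 and Cdt1, loads the Mcm2 to Mcm7 helicase onto origins, a step called licensing, which geminin (Gmnn) blocks by binding Cdt1. At the start of S phase Cdc45 and the GINS complex (Gins1 to Gins4) turn that helicase on, and polymerases, the sliding clamp PCNA and a supply of deoxynucleotides follow. E2F transcription factors switch many of these genes on in late G1, whereas E2f7 and E2f8 are repressors that act later in the cycle. LT-HSCs are known as largely quiescent cells, so levels of these genes in bulk RNA depend on how many of the sorted cells are cycling.

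The promoters that follow belong to the 4 members that were higher in Cxcr3-/- than in Cxcl10-/- cells and held a match to an E2F core motif, Hells being higher on counts and not in FPKM. Each is the 250 bases before the gene's start, 5′ to 3′ on the gene's strand, from RefSeq on GRCm38.p6, with the motif match in capitals.
E2f8 (chr7:48881597-48881846, minus strand): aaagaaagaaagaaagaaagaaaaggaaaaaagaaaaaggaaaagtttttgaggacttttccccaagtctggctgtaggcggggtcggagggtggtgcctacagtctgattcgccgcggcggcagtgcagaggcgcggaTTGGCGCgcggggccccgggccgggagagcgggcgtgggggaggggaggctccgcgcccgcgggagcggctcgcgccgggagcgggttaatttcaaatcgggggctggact
Hells (chr19:38930740-38930989, plus strand): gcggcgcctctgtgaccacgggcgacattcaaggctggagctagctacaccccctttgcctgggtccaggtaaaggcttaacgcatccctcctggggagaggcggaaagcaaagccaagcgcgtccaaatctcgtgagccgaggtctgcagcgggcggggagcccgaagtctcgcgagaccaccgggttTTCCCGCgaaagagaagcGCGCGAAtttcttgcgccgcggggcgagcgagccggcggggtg
Rrm2 (chr12:24708004-24708253, plus strand): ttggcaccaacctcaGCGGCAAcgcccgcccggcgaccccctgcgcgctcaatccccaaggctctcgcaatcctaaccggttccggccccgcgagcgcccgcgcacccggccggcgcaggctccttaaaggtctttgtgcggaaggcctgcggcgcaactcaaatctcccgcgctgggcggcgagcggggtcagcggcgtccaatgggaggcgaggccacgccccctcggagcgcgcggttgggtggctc
Uhrf1 (first of its 2 listed starts, chr17:56303087-56303336, plus strand): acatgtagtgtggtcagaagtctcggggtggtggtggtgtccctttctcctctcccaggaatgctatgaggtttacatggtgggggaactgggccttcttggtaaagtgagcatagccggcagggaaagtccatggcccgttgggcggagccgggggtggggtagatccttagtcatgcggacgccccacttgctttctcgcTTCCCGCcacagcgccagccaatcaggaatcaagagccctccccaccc
The first base of the match lies 111 bases before the start in E2f8, 235 bases in Rrm2 and 48 bases in Uhrf1. Hells has matches that begin 61 and 43 bases before its start.

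Windows of 250 bases before to 50 after each start were searched on both strands, for 42 of the 51 members that had an entry; Mcm4, which appears in the results, is not among the 42. The E2F motif in its 8-letter forms was TTTGGCGC or TTTCGCGC or TTTCCCGC or TTTGCCGC, and the core was any of these without its first letter. A member or gene counted if any of its listed starts held a match, whereas the shares of promoters count single windows and are not of the same unit. The 7-letter core stood in 26 of the 42 members (61.9%), against 20.01% of 8759 tested genes with an entry and 9.57% of 32851 promoters. The 8-letter forms, which contain the core, stood in 16 members (38.1%), against 4.93% of tested genes and 2.26% of promoters. The letters TTTGAA, the core of the element found in promoters of mitotic genes, stood in 7 members (16.7%), against 14.9% of tested genes and 17.9% of promoters. Among 29 genes of G2 and mitosis with an entry, 22 held TTTGAA and 3 held the 7-letter E2F core. The windows of Mcm2, Rpa1, Pcna, Slbp and Ung, which also appear in the results, held no such E2F core. A match is a run of letters and not a shown binding site, and the search was chosen after the expression values had been seen.

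The 9 libraries held between 12098498 and 17904629 expected counts. Mitochondrial transcripts took 10.2 to 11.2% of counts in Cxcr3-/-, 3.57 to 4.13% in Cxcl10-/- and 12.6 to 13.1% in WT libraries. Of 10866 tested genes, 61 to 82 were at 0 in a Cxcr3-/- library, 156 to 353 in a Cxcl10-/- library and 46 to 87 in a WT library. All 12 LT-HSC markers averaged at least 1 FPKM (fragment counts scaled to transcript length and library size) in every group. Their summed level was 741 to 812 FPKM in Cxcr3-/-, 774 to 899 in Cxcl10-/- and 787 to 899 in WT libraries. Of the 12, Kit was lower in Cxcl10-/- than in WT cells, with 127, 109 and 110.3 FPKM in Cxcr3-/-, 81.4, 72.3 and 45.8 FPKM in Cxcl10-/- and 98.1, 109.8 and 106 FPKM in WT (log2 fold change -0.75 ± 0.17, adjusted p = 0.026, edgeR), and it was higher in Cxcr3-/- than in Cxcl10-/- cells (0.83 ± 0.17, adjusted p = 0.0133). Slamf1, the gene of CD150, had 5.65, 9.24 and 7.43 FPKM in Cxcr3-/-, 0.69, 0.71 and 4.12 FPKM in Cxcl10-/- and 6.87, 7.4 and 5.23 FPKM in WT, and missed the threshold (-1.87 ± 0.69 in Cxcl10-/- against WT, adjusted p = 0.119, edgeR). Both encode surface proteins used in the sort and were singled out after their values were seen. Of the same 12, Hoxb5 ran the other way, with 9.74, 6.46 and 7.02 FPKM in Cxcl10-/- and 4.66, 2.7 and 3.3 FPKM in WT. So did Procr, with 27.0, 35.0 and 69.2 FPKM in Cxcl10-/- and 19.2, 28.1 and 19.5 FPKM in WT, with overlap. Ly6a, the gene of Sca-1, had 320, 379 and 307 FPKM in Cxcl10-/- and 271, 338 and 329 FPKM in WT. Of the 12, 0 were called higher in Cxcl10-/- against WT. Cxcl10 had 0 counts in all 3 Cxcl10-/- libraries, against 3 to 84 in WT. Cxcr3 had 0 counts in the Cxcr3-/- libraries and in 2 of 3 WT libraries, so it cannot check the Cxcr3-/- labels. The 10 endothelial markers summed to 12.4 to 47.4 FPKM in Cxcr3-/-, 427 to 629 FPKM in Cxcl10-/- and 10.5 to 26.2 FPKM in WT. The 9 stromal and bone markers summed to 1.01 to 2.47 FPKM in Cxcr3-/-, 82.5 to 340 FPKM in Cxcl10-/- and 1.61 to 6.06 FPKM in WT, with Bglap at 0 in all 9 libraries and Col1a1, Col3a1 and Adipoq also at 0 in all WT libraries. The 9 erythroid markers summed to 65.6 to 85.7 FPKM in Cxcr3-/-, 90.1 to 657 FPKM in Cxcl10-/- and 55.4 to 103 FPKM in WT, mostly from haemoglobin genes. The 7 progenitor markers, listed as genes the sorted cells should lack, summed to 202 to 278 FPKM in Cxcr3-/-, 195 to 246 FPKM in Cxcl10-/- and 209 to 254 FPKM in WT. Prtn3 and Cd34 made up most of that sum. Of the 7, 4 were tested. By edgeR 1 was called higher in Cxcr3-/- against Cxcl10-/- and 0 in Cxcl10-/- against WT. Cd48, singled out after its values were seen, had 7.24, 19.55 and 0.18 FPKM in Cxcr3-/-, 0, 7.94 and 0 FPKM in Cxcl10-/- and 17.8, 20.1 and 8.76 FPKM in WT. Flt3, the gene of CD135, ran the other way, with 6, 6.91 and 8.61 FPKM in Cxcr3-/-, 13.8, 9.7 and 6.45 FPKM in Cxcl10-/- and 4.17, 6.08 and 4.75 FPKM in WT. The part of other cell types in the differences of the Cxcl10-/- group was not tested.

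The levels of the members spanned a wide range. In WT cells all 51 averaged at least 1 FPKM, 43 at least 5, 31 at least 20 and 7 at least 100 FPKM. Of the 51, 50 members reached a mean of 1 FPKM over the 9 libraries and were tested; E2f2, an activating E2F, did not, with 1.85, 0.47 and 0.75 FPKM in Cxcr3-/-, 0.33, 0.27 and 0.04 FPKM in Cxcl10-/- and 0.84, 2.05 and 1.76 FPKM in WT. Chaf1a passed the filter only through its Cxcl10-/- libraries.

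Set against Cxcl10-/- cells, Cxcr3-/- cells had higher transcripts of Mcm2, Mcm4, Rpa1, Rrm2, E2f8, Uhrf1 and, on counts but not in FPKM, Hells. These 7 of 50 members (14%) passed edgeR's quasi-likelihood test at a Benjamini-Hochberg adjusted p under 0.05 over all tested genes, all of them higher, and 0 were lower. The background of genes called in that comparison was 10.5% in either direction, 5.1% higher and 5.41% lower. Set against WT, Cxcl10-/- cells had lower Pcna (of opposite sign under offsets for GC content and transcript length), Slbp and E2f8 and higher Ung, which makes 4 of 50 members (8%) against a background of 7.22% (3.52% higher and 3.7% lower). That share is near the background. Of the alternatives, limma called 7 members in Cxcr3-/- against Cxcl10-/-, 6 higher and 1 (Lig1) lower. Its background was 12.5%, with 4.69% higher and 7.81% lower. DESeq2 called 12, all higher, with a background of 16.7% (7.91% higher and 8.79% lower). For Cxcl10-/- against WT limma called 3, with 9.28%, and DESeq2 7, with 13.8%. Leaving out Cxcr3-/- replicate 1, 2 or 3 or Cxcl10-/- replicate 2 brought the 7 calls to 1, 4, 3 and 4. Leaving out Cxcr3-/- replicate 3 or WT replicate 1, 2 or 3 brought the 4 calls to 1, 1, 0 and 1. Against WT, 0 of 50 members and 0 of 10866 genes passed in Cxcr3-/- cells by edgeR or by limma. At an unadjusted p under 0.05, 4 members and 681 genes passed there by edgeR, and 8 members and 834 genes by limma; DESeq2 called 30 genes (0.276%) and 0 members. The comparisons with WT share its 3 libraries, and both comparisons with Cxcl10-/- share those 3 libraries.

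Where the level of a member differed, these bulk samples cannot tell apart cells in S phase, RNA of the gene per cell and RNA of other cell types. The Cxcl10-/- libraries also differed in mitochondrial share and in genes at 0, as given above, and the part of each was not tested. The median log2 fold change of the members was 0.27 in Cxcr3-/- against Cxcl10-/-, with 33 positive and 17 negative, beside -0.05 over all tested genes. It was 0.09 in Cxcr3-/- against WT, beside 0.02, and -0.23 in Cxcl10-/- against WT, beside 0.06. With offsets for GC content and transcript length, the last median was 0.01 and the first 0.13. Those offsets also moved the median of all genes by -0.18 in Cxcr3-/- against Cxcl10-/- and by 0.20 in Cxcl10-/- against WT. Under them 4 members were called higher and 2 lower in Cxcr3-/- against Cxcl10-/-, and 2 higher and 1 lower in Cxcl10-/- against WT. Over all genes the calls became 255 higher and 881 lower (554 and 588 without the offsets) in Cxcr3-/- against Cxcl10-/-, and 746 higher and 143 lower (383 and 402 without) in Cxcl10-/- against WT.

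**Figure D1:**
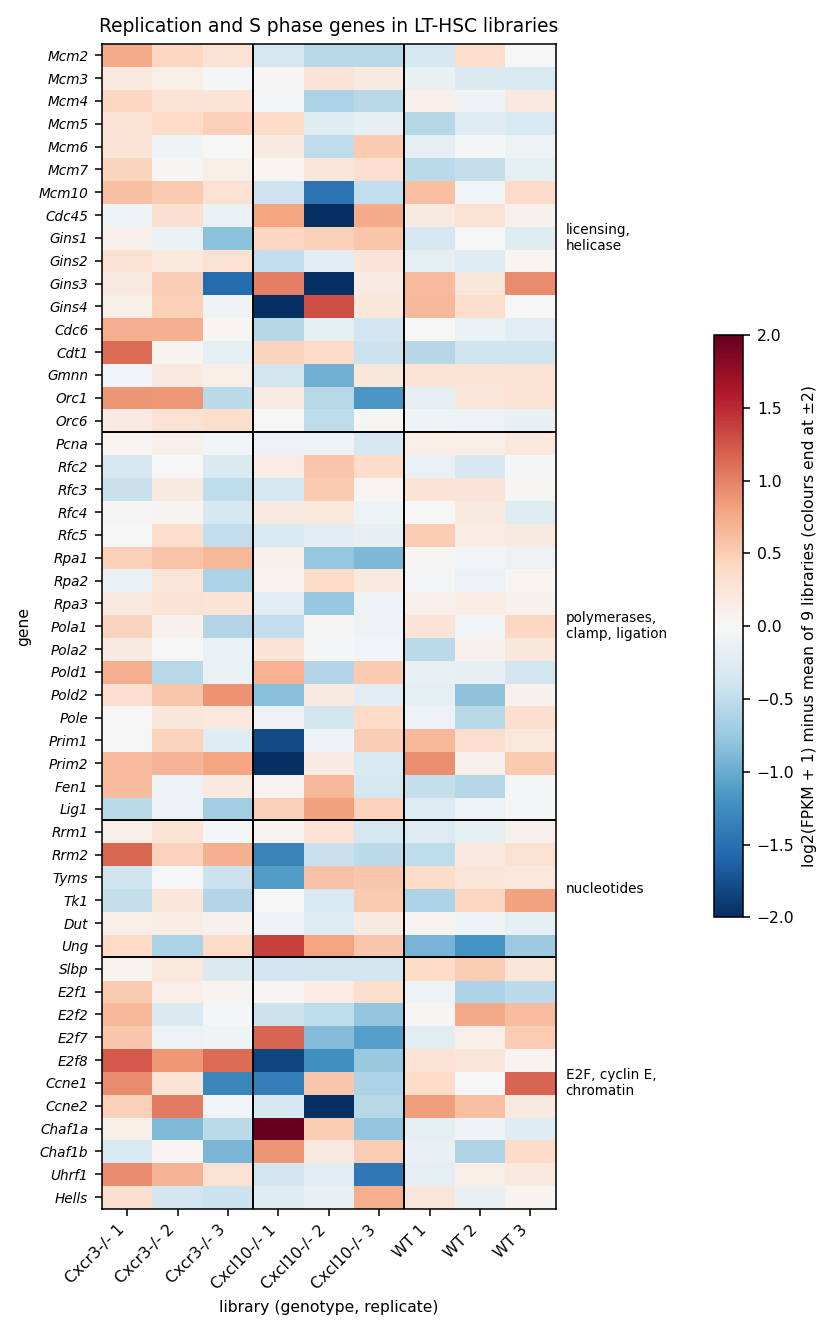
Level of the 51 members in each library as log2(FPKM + 1) minus the gene's mean over the 9 libraries, with rows grouped by step and columns by genotype; colours end at 2 in either direction. E2f8 is high in all 3 Cxcr3-/- libraries and low in all 3 Cxcl10-/- libraries, while members such as Gins4, Prim2 and Cdc45 have an extreme value in a single Cxcl10-/- library.

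**Figure D2:**
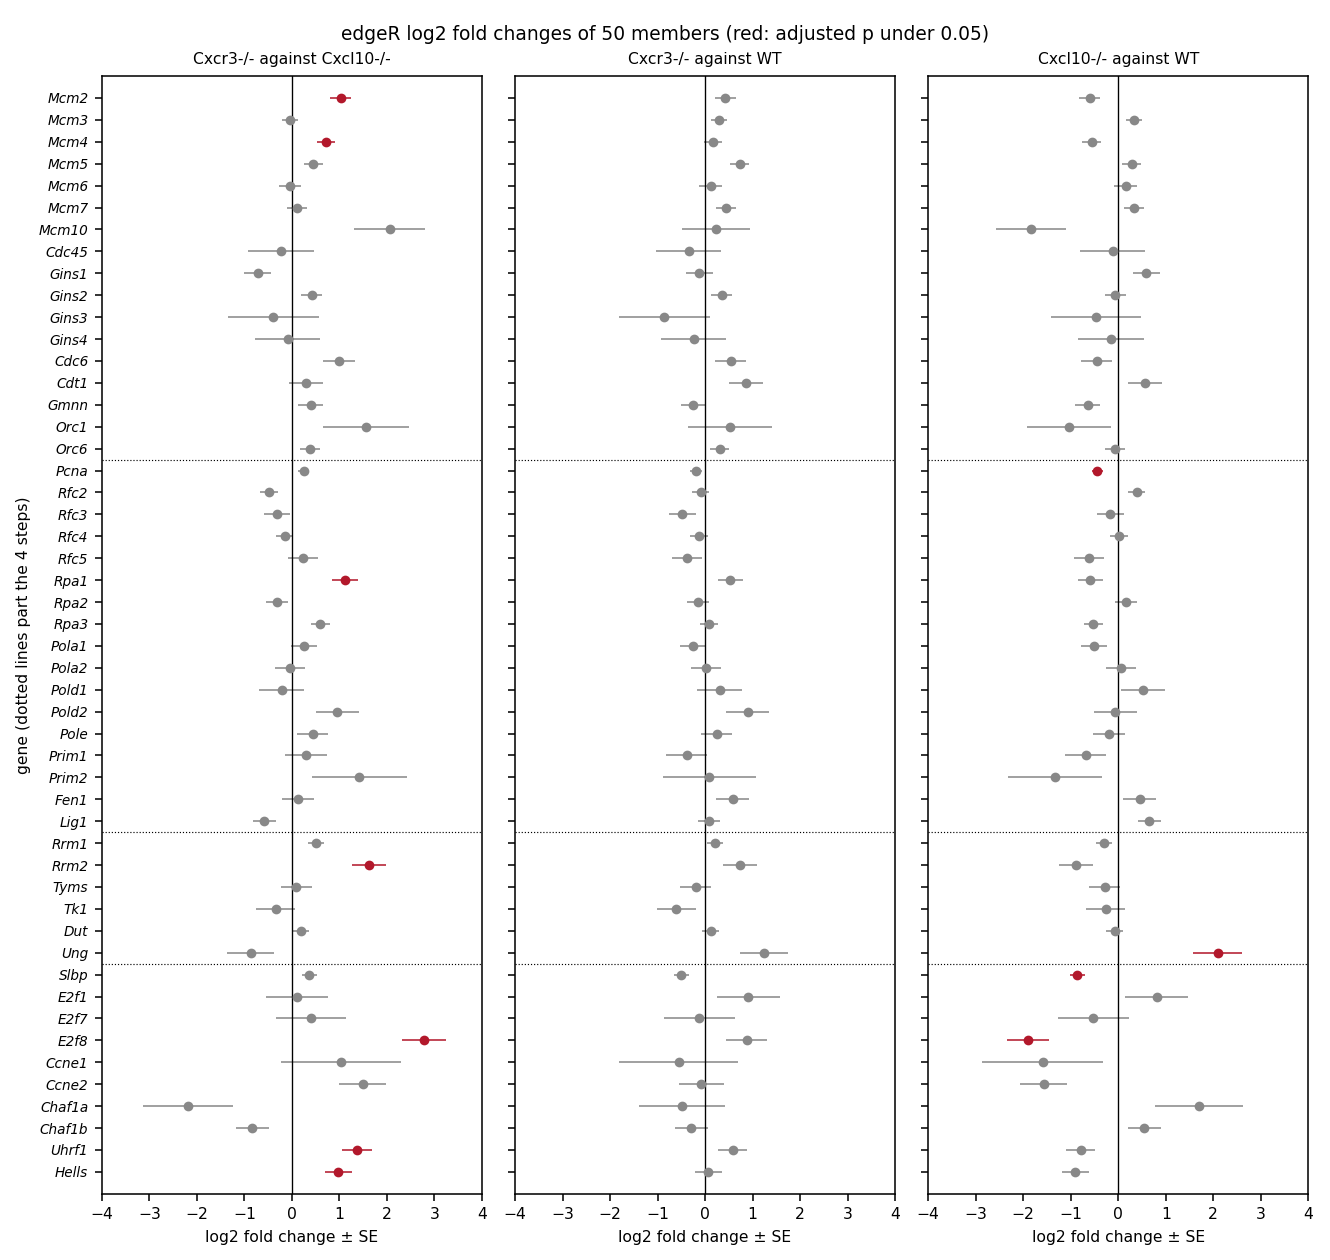
edgeR log2 fold change with its standard error for the 50 tested members in the 3 comparisons, with members that passed in red. The 7 red points of Cxcr3-/- against Cxcl10-/- lie right of 0, no point is red in Cxcr3-/- against WT, and Ung is the red point right of 0 in Cxcl10-/- against WT.

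Separation of the groups was also counted, as the members for which all 3 libraries of one group lay on one side of the 3 of the other. In Cxcr3-/- against WT, 17 of 50 members (34%) lay wholly higher, where the background was 12.1%, and 4 (8%) wholly lower, where it was 7.63%. The 17 were Mcm3, Mcm4, Mcm5, Mcm7, Gins2, Cdc6, Cdt1, Orc6, Rpa1, Rpa3, Pold2, Rrm2, Dut, Ung, E2f1, E2f8 and Uhrf1. The 4 were Gmnn, Pcna, Tyms and Slbp. Between the knockouts, 15 members (30%) lay wholly higher in Cxcr3-/-, with a background of 12.7%, and 5 (10%) wholly lower, with a background of 16.4%. Between Cxcl10-/- and WT, 9 members (18%) lay wholly higher in Cxcl10-/- and 9 wholly lower, with backgrounds of 18.3% and 11.9%. These are counts of levels in FPKM and carry no test.

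Among the licensing and helicase genes, which act first, 2 of 17 (11.8%) passed, Mcm2 and Mcm4, both higher in Cxcr3-/- against Cxcl10-/-. Of all tested genes 10.5% passed there, with 5.1% higher. The step summed to 782 ± 42.7 FPKM in Cxcr3-/-, 674 ± 81.3 FPKM in Cxcl10-/- and 684 ± 7.48 FPKM in WT (SD, n = 3 each). Mcm2, a subunit of the helicase ring, stood at 48.2, 38.1 and 34.8 FPKM in Cxcr3-/-, 22.3, 19.0 and 18.8 FPKM in Cxcl10-/- and 21.9, 36.4 and 28.0 FPKM in WT libraries. Every Cxcr3-/- library lay above every Cxcl10-/- library, and the WT libraries spread over the gap between them. The log2 fold change of Mcm2 in Cxcr3-/- against Cxcl10-/- was 1.03 ± 0.22 (SE, adjusted p = 0.014, edgeR). Without Cxcr3-/- replicate 1 its adjusted p was 0.0627.

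Mcm4, which sits in the same ring, had 54.4, 49.1 and 49.0 FPKM in Cxcr3-/-, 39.8, 25.8 and 27.4 FPKM in Cxcl10-/- and 43.7, 38.5 and 46.6 FPKM in WT. The Cxcr3-/- libraries lay above both other groups, and the Cxcl10-/- and WT libraries overlapped through Cxcl10-/- replicate 1. Its log2 fold change in Cxcr3-/- against Cxcl10-/- was 0.72 ± 0.20 (adjusted p = 0.0358, edgeR), and limma gave 0.72 with an adjusted p of 0.0511. The call was lost without any library other than Cxcl10-/- replicate 1, with adjusted p up to 0.11, and under the offsets for GC content and length, where Mcm4 had a log2 fold change of 0.37 (adjusted p = 0.30).

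Mcm5 was at 53.2, 57.0 and 60.5 FPKM in Cxcr3-/-, 56.3, 36.4 and 38.6 FPKM in Cxcl10-/- and 28.9, 36.0 and 35.0 FPKM in WT. Its log2 fold change in Cxcr3-/- against WT was 0.73 ± 0.20 and did not pass (adjusted p = 0.642, edgeR). Mcm3 and Mcm7 were lowest in WT, where Mcm7 had 30.2, 31.8 and 38.9 FPKM, after 60.9, 45.2 and 48.6 FPKM in Cxcr3-/- and 46.0, 53.1 and 56.3 FPKM in Cxcl10-/-. Across the ring of 6, the log2 fold changes in Cxcr3-/- against WT ran from 0.12 to 0.73, all positive and none past the threshold. For Cxcl10-/- against WT the same 6 split, with 4 positive and 2 negative.

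Mcm10, which helps start unwinding, had 3.76, 3.48 and 2.85 FPKM in Cxcr3-/-, 1.35, 0.12 and 1.23 FPKM in Cxcl10-/- and 3.74, 2.01 and 3.08 FPKM in WT. The Cxcl10-/- libraries lay below both other groups, yet the log2 fold changes of 2.06 ± 0.74 in Cxcr3-/- against Cxcl10-/- and -1.84 ± 0.74 in Cxcl10-/- against WT did not pass (adjusted p = 0.0994 and 0.151, edgeR). DESeq2 called Mcm10 in Cxcr3-/- against Cxcl10-/- (adjusted p = 0.0397). Gins1 had 44.8, 37.9 and 23.2 FPKM in Cxcr3-/-, 56.1, 58.5 and 61.8 FPKM in Cxcl10-/- and 32.9, 42.1 and 35.2 FPKM in WT. Here Cxcl10-/- cells were the highest group without overlap, with a log2 fold change of -0.72 ± 0.28 in Cxcr3-/- against Cxcl10-/- (adjusted p = 0.127, edgeR). Gins4, of the same complex, ranged from 4.21 to 103 FPKM among the 3 Cxcl10-/- libraries alone, and Cdc45 from 1.17 to 16.0 FPKM; both were singled out after their values were seen.

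Of the loading factors, Cdc6 had 17.1, 16.9 and 10.3 FPKM in Cxcr3-/-, 6.32, 8.59 and 7.41 FPKM in Cxcl10-/- and 9.86, 9.01 and 8.45 FPKM in WT. Its log2 fold change in Cxcr3-/- against Cxcl10-/- was 0.99 ± 0.33 (adjusted p = 0.077, edgeR; 0.046 by DESeq2). Orc6, a subunit of the origin recognition complex, had 90.8, 101 and 104 FPKM in Cxcr3-/-, 81.9, 56.6 and 82.1 FPKM in Cxcl10-/- and 76.7, 74.7 and 73.5 FPKM in WT. Cxcr3-/- cells were the highest group without overlap, and no comparison of Orc6 passed (lowest adjusted p = 0.28, edgeR). Geminin (Gmnn), the inhibitor of Cdt1, was the most abundant member of this step, with 158, 189 and 178 FPKM in Cxcr3-/-, 127, 84.0 and 191 FPKM in Cxcl10-/- and 198, 199.5 and 200.15 FPKM in WT. Its WT libraries differed by little and lay above all 6 knockout libraries, while the log2 fold change in Cxcl10-/- against WT was -0.64 ± 0.26 (adjusted p = 0.161, edgeR).

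Genes of the polymerases, the clamp and strand joining had 1 call in Cxcr3-/- against Cxcl10-/-, Rpa1, and 1 in Cxcl10-/- against WT, Pcna, of 17. Each makes 5.88% of the step, where 10.5% and 7.22% of all tested genes were called. The step summed to 1202 ± 92.5 FPKM in Cxcr3-/-, 1067 ± 33.4 FPKM in Cxcl10-/- and 1226 ± 14.6 FPKM in WT (SD, n = 3 each). Pcna and Rpa3 weigh most in this sum, averaging 344 and 347 FPKM in Cxcr3-/-, 295 and 232 FPKM in Cxcl10-/- and 376 and 315 FPKM in WT. Their log2 fold changes in Cxcl10-/- against WT changed sign under the offsets for GC content and length. The median of the 17 gene means was 26.8 FPKM in Cxcr3-/-, 24.2 FPKM in Cxcl10-/- and 27.1 FPKM in WT. Pcna, the sliding clamp and the member with the highest mean in WT cells, had 346, 361 and 325 FPKM in Cxcr3-/-, 311, 309 and 267 FPKM in Cxcl10-/- and 368, 370.0 and 391 FPKM in WT. The groups did not overlap, with Cxcl10-/- lowest and WT highest. In Cxcl10-/- against WT the log2 fold change was -0.44 ± 0.12 (adjusted p = 0.0478, edgeR). The call was lost without any library other than Cxcr3-/- replicate 1 (adjusted p up to 0.148), limma gave an adjusted p of 0.103, no filter on low values 0.139 and edgeR's own filter 0.0526, and the offsets for GC content and length gave 0.04, of opposite sign.

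Replication protein A coats the single strand that the helicase exposes. Its large subunit gene Rpa1 had 29.1, 31.1 and 33.4 FPKM in Cxcr3-/-, 22.2, 11.8 and 10.7 FPKM in Cxcl10-/- and 21.2, 19.9 and 19.1 FPKM in WT. The Cxcr3-/- libraries lay above all others. Rpa1 was higher in Cxcr3-/- than in Cxcl10-/- cells by a log2 fold change of 1.12 ± 0.27 (adjusted p = 0.0226, edgeR). The call was lost without Cxcl10-/- replicate 2 or 3 or without any 1 Cxcr3-/- library (adjusted p up to 0.0797), and under the offsets for GC content and length, with 0.86 (adjusted p = 0.066). The small subunit gene Rpa3 had 329.9, 358 and 352 FPKM in Cxcr3-/-, 252, 172 and 272 FPKM in Cxcl10-/- and 312, 324 and 308 FPKM in WT. Its log2 fold change in Cxcr3-/- against Cxcl10-/- was 0.60 ± 0.19 (adjusted p = 0.0687, edgeR). It passed by limma with 0.60 (adjusted p = 0.0384) and by DESeq2 with 0.59 (adjusted p = 0.0309). Under the offsets for GC content and length it became -0.85 (adjusted p = 0.0416, edgeR). The third subunit gene, Rpa2, had 46.8, 60.9 and 33.0 FPKM in Cxcr3-/-, 53.8, 66.8 and 58.7 FPKM in Cxcl10-/- and 50.6, 47.3 and 52.6 FPKM in WT, so the order of the groups differed among the 3 subunits.

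Lig1, which joins Okazaki fragments, had 22.4, 30.4 and 20.04 FPKM in Cxcr3-/-, 46.4, 58.9 and 45.7 FPKM in Cxcl10-/- and 27.5, 30.5 and 32.3 FPKM in WT. In FPKM the Cxcl10-/- libraries were higher than both other groups without overlap. On counts, the log2 fold change in Cxcr3-/- against Cxcl10-/- was -0.58 ± 0.23 (adjusted p = 0.138, edgeR), and on log2(FPKM + 1) it was -1.03 ± 0.23 (adjusted p = 0.0138, limma). Fen1, which trims the fragments before they are joined, had 25.6, 14.7 and 18.6 FPKM in Cxcr3-/-, 16.7, 26.1 and 12.3 FPKM in Cxcl10-/- and 11.3, 10.5 and 15.6 FPKM in WT, with overlap in every comparison.

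The clamp loader genes did not move as a unit. Rfc2 had 35.2, 44.5 and 36.0 FPKM in Cxcr3-/-, 48.7, 64.9 and 57.3 FPKM in Cxcl10-/- and 40.3, 35.1 and 42.9 FPKM in WT, and Cxcl10-/- cells were highest without overlap. Rfc5 had 22.0, 28.3 and 15.3 FPKM in Cxcr3-/-, 17.7, 18.6 and 19.5 FPKM in Cxcl10-/- and 31.8, 24.5 and 25.1 FPKM in WT, and there Cxcl10-/- lay below WT. No comparison of either gene passed in the main fit (lowest adjusted p = 0.114 for Rfc2 and 0.265 for Rfc5, edgeR). Rfc2 in Cxcr3-/- against Cxcl10-/- passed under the offsets for GC content and length (-0.67, adjusted p = 0.0428, edgeR). It also passed there without Cxcl10-/- replicate 1 (-0.61, adjusted p = 0.0489, edgeR). Pola1, the catalytic subunit of the polymerase that starts each strand, had 24.9, 19.3 and 11.7 FPKM in Cxcr3-/-, 12.5, 18.4 and 16.8 FPKM in Cxcl10-/- and 21.9, 17.4 and 24.5 FPKM in WT. Pold2, a subunit of the lagging-strand polymerase, had 12.4, 14.6 and 18.8 FPKM in Cxcr3-/-, 4.93, 11.1 and 8.16 FPKM in Cxcl10-/- and 8.33, 5.06 and 10.3 FPKM in WT. Cxcr3-/- libraries were the highest for Pold2, and its log2 fold change of 0.96 ± 0.45 against Cxcl10-/- did not pass (adjusted p = 0.206, edgeR). Prim2, a primase subunit singled out after its values were seen, had 0 counts in Cxcl10-/- replicate 1, against 326 and 256 counts in the other Cxcl10-/- libraries; it was the 1 tested member at 0 in any library.

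Nucleotide supply genes summed to 448 ± 31.7 FPKM in Cxcr3-/-, 450 ± 79.1 FPKM in Cxcl10-/- and 450 ± 6.51 FPKM in WT (SD, n = 3 each), which differ by less than the spread of the Cxcl10-/- libraries. Dut and Tyms made up most of each sum, averaging 221 and 102 FPKM in Cxcr3-/-, 196 and 139 FPKM in Cxcl10-/- and 194 and 148 FPKM in WT. The sum therefore says little about the less abundant genes of the step. Of the 6 genes, Rrm2 passed in Cxcr3-/- against Cxcl10-/- and Ung in Cxcl10-/- against WT. Each makes 16.7% of the step, where 10.5% and 7.22% of all tested genes were called. Rrm2, the S phase subunit of ribonucleotide reductase, had 33.9, 20.7 and 24.9 FPKM in Cxcr3-/-, 5.28, 10.5 and 9.92 FPKM in Cxcl10-/- and 10.1, 17.0 and 18.5 FPKM in WT. Every Cxcr3-/- library lay above every library of the other groups. Rrm2 was higher in Cxcr3-/- than in Cxcl10-/- cells by a log2 fold change of 1.62 ± 0.36 (adjusted p = 0.0175, edgeR; 0.0135 by limma). Without Cxcr3-/- replicate 1 the adjusted p was 0.0777, and without replicate 3 it was 0.0521. Rrm1, the partner subunit of the same enzyme, had 68.9, 76.8 and 61.6 FPKM in Cxcr3-/-, 67.0, 77.6 and 49.4 FPKM in Cxcl10-/- and 52.5, 55.8 and 68.2 FPKM in WT, with overlap in every comparison in FPKM. On counts, Rrm1 had a log2 fold change of 0.51 ± 0.17 in Cxcr3-/- against Cxcl10-/- (adjusted p = 0.0776, edgeR; 0.0401 by DESeq2), and 0.11 on log2(FPKM + 1) (adjusted p = 0.773, limma).

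Ung, which removes uracil from DNA, had 8.83, 3.78 and 8.76 FPKM in Cxcr3-/-, 18.2, 11.8 and 9.92 FPKM in Cxcl10-/- and 2.89, 2.24 and 3.52 FPKM in WT. The groups did not overlap, with Cxcl10-/- highest and WT lowest. In Cxcl10-/- against WT its log2 fold change was 2.10 ± 0.51 (adjusted p = 0.0324, edgeR). The call was lost without Cxcl10-/- replicate 1, Cxcr3-/- replicate 3 or any 1 WT library (adjusted p up to 0.143). In Cxcr3-/- against WT it was 1.23 ± 0.50 (adjusted p = 0.744). Dut, which destroys dUTP before it can enter DNA, had 223, 226 and 215 FPKM in Cxcr3-/-, 189.6, 169.7 and 230.1 FPKM in Cxcl10-/- and 211, 190.4 and 179 FPKM in WT, and did not pass in any comparison (lowest adjusted p = 0.534, edgeR). Tyms, the thymidylate synthase, had 92.1, 123 and 90.9 FPKM in Cxcr3-/-, 55.6, 184 and 177 FPKM in Cxcl10-/- and 159, 144 and 142 FPKM in WT. Tk1, which salvages thymidine, had 17.8, 30.0 and 16.4 FPKM in Cxcr3-/-, 25.4, 20.2 and 36.8 FPKM in Cxcl10-/- and 16.1, 33.9 and 44.6 FPKM in WT, with overlap in every comparison.

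Of the E2F, cyclin E, histone supply and chromatin assembly genes, 3 of 10 tested (30%) were higher in Cxcr3-/- against Cxcl10-/-. They were E2f8, Uhrf1 and, on counts but not in FPKM, Hells. In that comparison 5.1% of all tested genes were higher. By limma 2 of 10 were higher, beside 4.69% of all tested genes. The step median in that comparison was 0.69 by edgeR and 0.38 by limma. The licensing, polymerase and nucleotide steps had medians of 0.38, 0.24 and 0.14 by edgeR. By limma they had 0.42, 0.17 and -0.08, so the licensing median was the highest there. In Cxcl10-/- against WT 2 of 10 (20%) were lower, Slbp and E2f8, where 3.7% of all tested genes were lower. The step median was -0.83 by edgeR and -0.56 by limma. The other steps, in the same order, had edgeR medians of -0.12, -0.17 and -0.28 and limma medians of -0.27, 0.01 and -0.05. The 11 genes of the step summed to 300 ± 56.2 FPKM in Cxcr3-/-, 233 ± 14.5 FPKM in Cxcl10-/- and 345 ± 14.9 FPKM in WT (SD, n = 3 each). Slbp alone averaged 189, 144 and 244 FPKM in these groups. E2f8, the repressor E2F, had 14.4, 11.0 and 13.3 FPKM in Cxcr3-/-, 0.84, 1.80 and 2.94 FPKM in Cxcl10-/- and 7.06, 6.79 and 5.80 FPKM in WT. The 3 groups were fully apart, with WT in the middle. Its log2 fold change was 2.78 ± 0.46 in Cxcr3-/- against Cxcl10-/- (adjusted p = 0.00497, edgeR), a call kept in all 18 alternatives, 9 of which left out a library. It was -1.90 ± 0.45 in Cxcl10-/- against WT (adjusted p = 0.0288, edgeR), a call lost without Cxcr3-/- replicate 3 or any 1 WT library (adjusted p up to 0.0984), and 0.88 ± 0.44 in Cxcr3-/- against WT (adjusted p = 0.831).

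Uhrf1, which marks newly copied DNA for maintenance methylation, had 35.3, 29.3 and 22.1 FPKM in Cxcr3-/-, 13.4, 15.1 and 6.03 FPKM in Cxcl10-/- and 15.4, 19.4 and 20.6 FPKM in WT. The 3 groups did not overlap. Its log2 fold change in Cxcr3-/- against Cxcl10-/- was 1.37 ± 0.32 (adjusted p = 0.0187, edgeR), and without Cxcr3-/- replicate 1 the adjusted p was 0.0804. Slbp, which binds the stem-loop of replication-dependent histone mRNAs, had 198, 216 and 152 FPKM in Cxcr3-/-, 144, 145 and 144 FPKM in Cxcl10-/- and 245, 265 and 222 FPKM in WT. Both knockout groups lay below WT. Slbp was lower in Cxcl10-/- than in WT cells by a log2 fold change of -0.86 ± 0.16 (adjusted p = 0.00921, edgeR), and -0.50 ± 0.16 in Cxcr3-/- against WT did not pass (adjusted p = 0.643). The Cxcl10-/- call had an adjusted p of 0.0549 without WT replicate 2, and a log2 fold change of -0.40 (adjusted p = 0.123) under the offsets for GC content and length.

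Cyclin E drives entry into S phase. Ccne2 had 22.8, 33.9 and 15.4 FPKM in Cxcr3-/-, 12.6, 2.67 and 10.6 FPKM in Cxcl10-/- and 29.4, 24.7 and 18.2 FPKM in WT. Cxcl10-/- libraries lay below all others, and the log2 fold changes of 1.49 ± 0.49 in Cxcr3-/- against Cxcl10-/- and -1.57 ± 0.49 in Cxcl10-/- against WT missed the threshold (adjusted p = 0.0733 and 0.0736, edgeR), while DESeq2 passed both. Ccne1 had 4.57, 2.49 and 0.17 FPKM in Cxcr3-/-, 0.11, 3.18 and 0.89 FPKM in Cxcl10-/- and 2.71, 1.90 and 5.47 FPKM in WT, a spread too wide to order the groups. E2f1, an activating E2F, had 3.53, 2.49 and 2.30 FPKM in Cxcr3-/-, 2.25, 2.5 and 3.06 FPKM in Cxcl10-/- and 1.94, 1.06 and 1.2 FPKM in WT, with WT lowest and no comparison past the threshold (lowest adjusted p = 0.498, edgeR). The chromatin assembly factor genes differed from each other: Chaf1b had 17.2, 22.0 and 10.9 FPKM in Cxcr3-/-, 40.2, 24.5 and 31.1 FPKM in Cxcl10-/- and 19.2, 13.8 and 27.9 FPKM in WT. Chaf1a had 1.55, 0.28 and 0.64 FPKM in Cxcr3-/-, 8.82, 2.35 and 0.36 FPKM in Cxcl10-/- and 1.05, 1.23 and 0.99 FPKM in WT, so 1 Cxcl10-/- library carried its high mean.

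**Figure D3:**
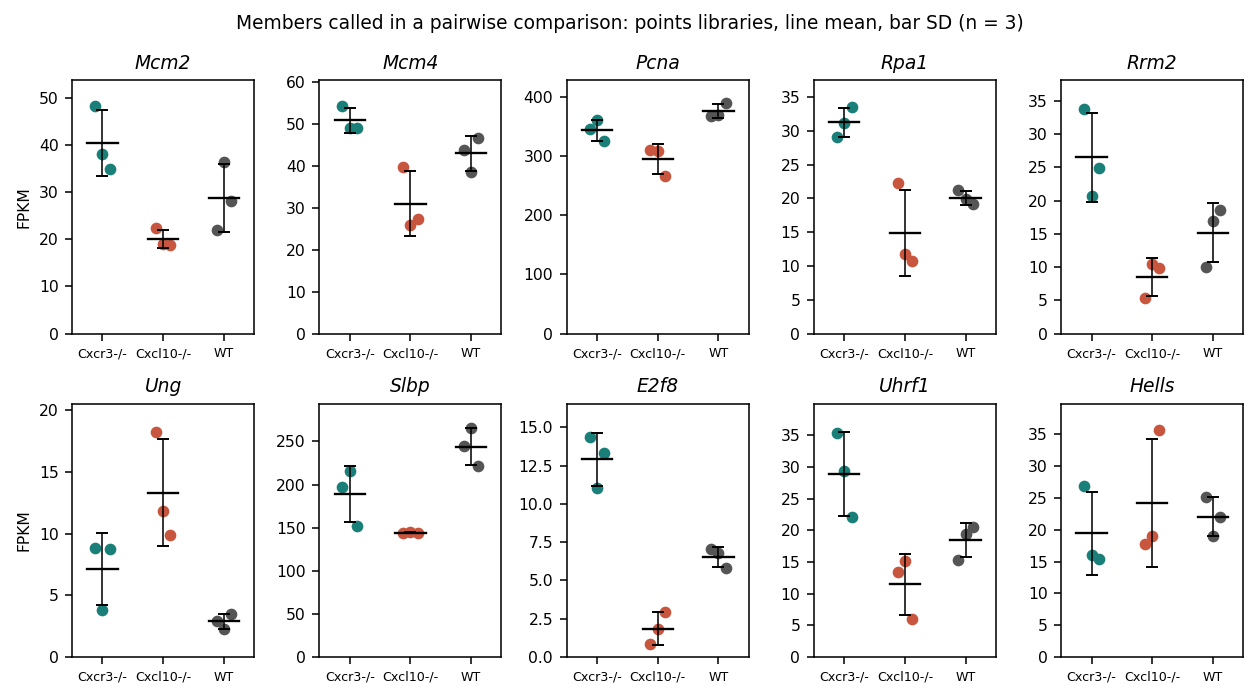
FPKM of the 10 members called by edgeR in at least 1 comparison, with 1 point per library, a line at the mean and a bar of 1 SD (n = 3 per genotype); every axis starts at 0. E2f8 separates into 3 levels, with Cxcr3-/- at 11.0 to 14.4 and Cxcl10-/- at 0.84 to 2.94 FPKM, whereas the Hells points overlap in FPKM.

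Hells, a chromatin remodeller of the Snf2 family, was called on counts but not on FPKM. It had 1908, 1469 and 1092 counts in Cxcr3-/-, 681, 586 and 1232 counts in Cxcl10-/- and 1283, 1706 and 1803 counts in WT. In FPKM it had 26.9, 16.0 and 15.4 in Cxcr3-/-, 17.7, 19.0 and 35.7 in Cxcl10-/- and 25.2, 19.1 and 21.9 in WT, so that the groups overlapped. The log2 fold change in Cxcr3-/- against Cxcl10-/- was 0.98 ± 0.28 on counts (adjusted p = 0.0469, edgeR), lost without any library other than Cxcl10-/- replicate 3, and -0.27 ± 0.32 on log2(FPKM + 1) (adjusted p = 0.619, limma). Under the offsets for GC content and length, Hells had 0.20 (adjusted p = 0.732), and its adjusted p was 0.0501 with median-of-ratios factors and 0.0526 with edgeR's own filter. The transcript length that joins a count to its FPKM, computed from both and the library total, was 5531 to 5869 bases in Cxcr3-/-, 2176 to 2839 bases in Cxcl10-/- and 3545 to 5865 bases in WT for Hells. For Mcm2 the same quantity lay between 3370.4 and 3371.8 bases in all 9 libraries.

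Of 48 members with at least 5 counts in every library, 4 (8.33%) had a longest implied length over 1.5 times the shortest among the 9 libraries, namely Hells, Lig1, Rrm1 and Tyms, against 15.5% of 9766 genes. Lig1 ran from 2392 to 3093 bases in Cxcr3-/-, 1682 to 2269 bases in Cxcl10-/- and 1740 to 1983 bases in WT. Tyms ran from 1176 to 1679 bases in Cxcr3-/-, 982 to 1075 bases in Cxcl10-/- and 1023 to 1185 bases in WT. Which isoforms the counts of these 4 genes cover is not known here, and the cause of the differing lengths was not tested.

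**Figure D4:**
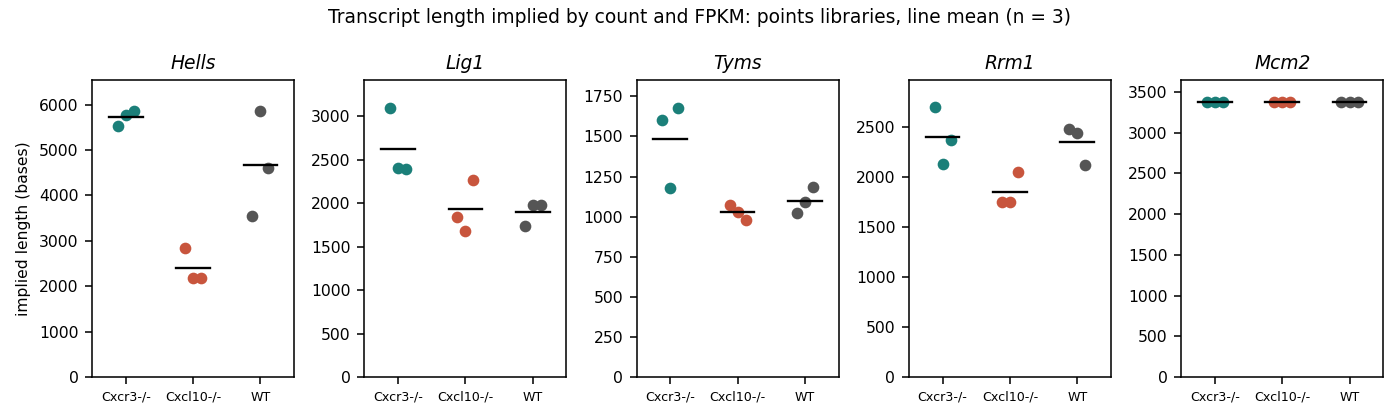
Transcript length in bases implied by the deposited count and FPKM of 5 members, with 1 point per library and a line at the group mean (n = 3 per genotype). Hells averages 5727 bases in Cxcr3-/- and 2398 bases in Cxcl10-/- libraries, and Mcm2 stays at one length.

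The 19 members outside the rule for naming, some of which are described above, include 18 that were tested, and these passed in no comparison. Their log2 fold changes ran from -0.39 to 1.56 in Cxcr3-/- against Cxcl10-/- (lowest adjusted p = 0.263), from -0.85 to 0.87 in Cxcr3-/- against WT (lowest adjusted p = 0.759) and from -1.33 to 0.57 in Cxcl10-/- against WT (lowest adjusted p = 0.258), all by edgeR. A test for any difference among the 3 genotypes called 5 members, E2f8 (adjusted p = 0.0108), Slbp (0.0156), Mcm2 (0.0328), Rrm2 (0.0400) and Uhrf1 (0.0441), where the background was 8.39% of tested genes.

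**Figure D5:**
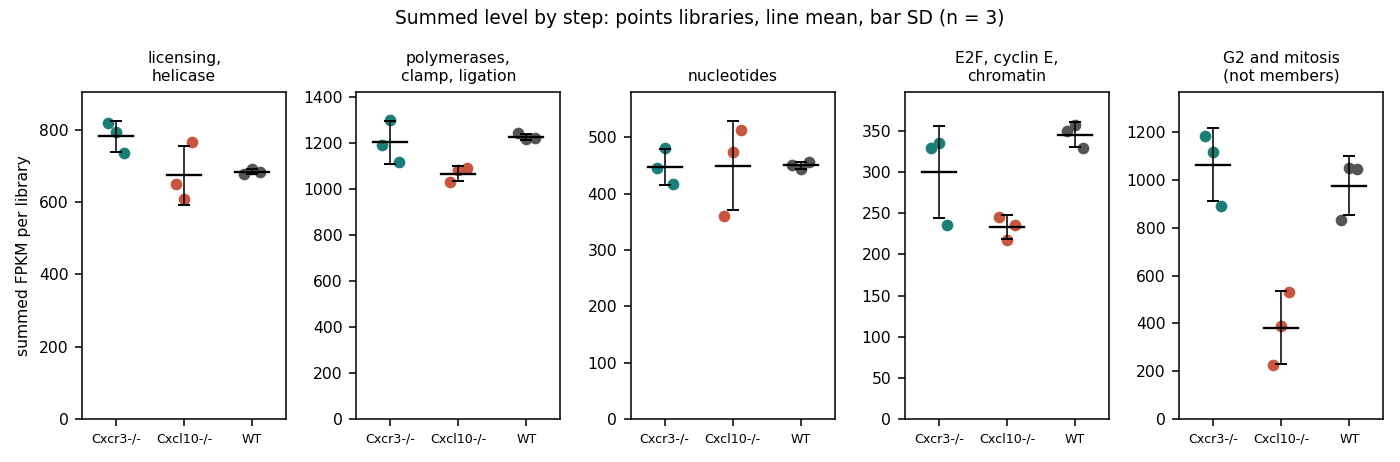
FPKM summed over the members of each step, and over 32 genes of G2 and mitosis that are not members, with 1 point per library, a line at the mean and a bar of 1 SD (n = 3 per genotype). The nucleotide step has nearly equal means in all groups, while the sum of G2 and mitosis genes is 1065 ± 152 FPKM in Cxcr3-/-, 382 ± 153 FPKM in Cxcl10-/- and 976 ± 123 FPKM in WT.

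Of 73 tested genes of origin firing, fork, nucleotide and E2F control, 11 (15.1%) were higher and 0 lower in Cxcr3-/- against Cxcl10-/-, where 5.1% of all tested genes were higher. The 11 became 4 without Cxcr3-/- replicate 1 and 7 without replicate 2, and the offsets for GC content and length gave 9 higher and 3 lower. The 6 with the smallest p included Tfdp1, the partner of E2Fs, with 87.4, 59.6 and 61.7 FPKM in Cxcr3-/- and 24.1, 24.5 and 25.4 FPKM in Cxcl10-/- libraries (log2 fold change 1.52 ± 0.20, adjusted p = 0.00142, edgeR). Rbl1, a pocket protein that represses E2F targets, had 42.9, 27.1 and 25.5 FPKM in Cxcr3-/- and 11.4, 9.52 and 6.85 FPKM in Cxcl10-/- (1.81 ± 0.24, adjusted p = 0.00174). The others were Usp1 (1.25), Pclaf (1.22), Topbp1 (1.197) and Atad5 (1.31). In Cxcl10-/- against WT, 8 were lower, with Rbl1 (-1.66), Tfdp1 (-1.24), Rbl2 (-1.53), Rnaseh2b (-0.86), Fbxo5 (-1.34) and Pclaf (-0.98) first by p, and 1, Ssrp1, was higher. The 8 (11%, against 3.7% of all tested genes) became 3, 2 and 3 without WT replicate 1, 2 or 3, 4 without Cxcr3-/- replicate 3 and 16 by DESeq2, and the offsets gave 3 lower and 3 higher. When Cxcr3-/- was set against WT, 0 of 73 passed by edgeR or DESeq2, and 2 had an unadjusted p under 0.05. The median of the 73 was 0.24 in Cxcr3-/- against Cxcl10-/- and -0.17 in Cxcl10-/- against WT, beside -0.05 and 0.06 over all tested genes. Both changed sign, to -0.06 and 0.10, under the offsets for GC content and length. The medians of all genes were then -0.22 and 0.26, so the 73 stayed above all genes in the first comparison and below in the second. Of genes of G2 and mitosis, 18 of 32 were higher in Cxcr3-/- against Cxcl10-/- (median 1.69), where 5.1% of all tested genes were, and 13 of 32 lower in Cxcl10-/- against WT (median -1.45), where 3.7% were. The 18 became 9, 10 and 9 without Cxcr3-/- replicate 1, 2 or 3, 11 without WT replicate 2 or 3 and 9 under the offsets. The 13 became 7, 4 and 7 without WT replicate 1, 2 or 3 and 11 under the offsets.

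The members varied most among the Cxcl10-/- mice. The median SD of log2(FPKM + 1) was 0.27 in Cxcr3-/-, 0.42 in Cxcl10-/- and 0.19 in WT over the 50 tested members. Over all tested genes it was 0.31 in Cxcr3-/-, 0.49 in Cxcl10-/- and 0.25 in WT. An SD above 1 was found for 2 members (4%) in Cxcr3-/-, where 3.25% of all tested genes had one, for 8 (16%) in Cxcl10-/-, with 16.4% of all, and for 0 in WT, with 1.33%. In position, the 51 members lie on 15 chromosomes by GENCODE M21, with 8 on chromosome 5 and 6 on chromosome 8.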

How the data were processed

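One deposited table held FPKM and counts of 22322 genes in 9 libraries, per the file headers. The deposited counts were taken to be expected counts made by the authors' quantifier, because 87.1% were whole and the others fractional, and were rounded. Tools named in the submitters' processing notes are RSEM, StringTie, HISAT2 and fastp. Neither their versions nor the build or annotation is stated in the sources used. By the series' design, replicates are different mice.

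The 10866 genes averaging 1 FPKM or more across all libraries entered one edgeR 4.0.16 quasi-likelihood fit with TMM factors and genotype as the only term (R 4.3.3). Calls are at a Benjamini-Hochberg adjusted p under 0.05 over all tested genes. SEs are the log2 fold change divided by the square root of F, and SDs are over 3 libraries. Alternatives were limma 3.58.1 on log2(FPKM + 1) or with a pseudocount of 0.1 (such logs understate changes of weakly expressed genes), DESeq2 1.42.0, other factors and filters, offsets for GC content and length (10856 genes), a replicate block, and leaving out each library. Code was tested on simulated data. Per-library values were given for members called by edgeR or limma and, in each step, for up to 5 more by p among the 3 genotypes and the 2 with the highest mean; others named were chosen after their values were seen. The members and lists were chosen with earlier results of these data known. Reads carry no molecular identifiers.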

Additional observations from a re-analysis of the deposited data

How the results depend on the processing

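Genes called in Cxcl10-/- against WT numbered 785, against 1498 by DESeq2, 1183 with no filter on low values and 193 to 1003 when a library was left out, lowest without WT replicate 2. Genes called in Cxcr3-/- against Cxcl10-/- numbered 1142, against 1814 by DESeq2 and 423 to 1407 when a library was left out, lowest without Cxcr3-/- replicate 1. In Cxcr3-/- against WT, 0 genes were called, against 30 by DESeq2, 38 with no filter and 0 to 6 when a library was left out. Members called in Cxcl10-/- against WT numbered 4, against 7 by DESeq2 and 0 to 6 when a library was left out; in Cxcr3-/- against Cxcl10-/- they numbered 7, against 12 and 1 to 10. Members called for any difference numbered 5, against 12 by DESeq2, 8 with no filter and 2 to 8 when a library was left out. The members' median in Cxcl10-/- against WT was -0.23, with 0.0094 under the offsets for GC content and length and -0.37 to -0.16 when a library was left out; in Cxcr3-/- against Cxcl10-/- it was 0.27, with 0.13 under the offsets. The same offsets turned Pcna in Cxcl10-/- against WT to 0.035 (adjusted p = 0.913), Rpa3 there to 1.01 (adjusted p = 0.0257) and Rpa3 in Cxcr3-/- against Cxcl10-/- to -0.85 (adjusted p = 0.0416). Hells in Cxcr3-/- against Cxcl10-/- was -0.27 by limma and -0.29 with a pseudocount of 0.1 (adjusted p = 0.619 for both). The cause of these changes was not tested. Of 1728 single-gene values under alternatives, 1637 stayed on their side of the threshold, 46 of them with a change of sign in a value called in neither fit. A further 59 lost a call, 27 gained one, and 5 changed sign where one of the fits had called it. Most of the 1728 come from genes and comparisons that the main fit had not called, which had no call to lose. Of its 11 calls, limma also made 8, DESeq2 11 and the replicate block 7. Of 18 alternatives each, Pcna kept its call in 4, Hells in 4 and Mcm4 in 7. E2f8 in Cxcr3-/- against Cxcl10-/- kept its call in all 18.

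With the replicate number as a block, 442 genes and 1 member (Slbp) were called in Cxcl10-/- against WT, and 2 members for any difference; E2f8 in Cxcl10-/- against WT had an adjusted p of 0.0506, Ung 0.053 and Pcna 0.0798, and Hells in Cxcr3-/- against Cxcl10-/- 0.0751. Same-numbered libraries correlated between -0.0836 and 0.0191 in their deviations from group means, so the numbers were not taken as pairs.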
